A study of Homo sapiens with 5 samples.

Results

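MYC, its partner MAX and the MXD repressors form a network of transcription factors that compete for the same DNA, and its 10 genes were followed in NCI-H209 cells, an established line of small cell lung cancer (SCLC) that grows as a neuroendocrine tumor. The members, MYC, MYCL, MYCN, MAX, MXD1, MXD3, MXD4, MXI1, MNT and MLX, were matched by gene name, and each had 1 of the 64837 entries counted. Total RNA was sequenced from 3 libraries of untreated NCI-H209 cells (control) and 2 libraries of the same cells conditioned for 24 h by human brain microvascular endothelial cells (HBMECs) across a Transwell chamber (co-cultured). The comparison asked how a vascular niche of the brain changes the transcripts of the tumor cells. All 5 libraries come from 1 cell line, and no source used here says whether those of a group were separate cultures, so p-values measure only the spread between these libraries, which may be technical. In bulk RNA, fewer cells of a type and less RNA per cell cannot be told apart.

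MYC, MYCL and MYCN are related activators of growth genes in different tumors, and MYCL was first found as a gene amplified in SCLC. Each of them binds DNA only as a pair with MAX, chiefly at the E-box, and recruits chromatin-opening enzymes there. MXD1, MXI1 (also called MXD2), MXD3, MXD4 and MNT pair with the same MAX, sit on the same E-boxes and recruit the SIN3 histone deacetylase complex, so the ratio of the MYC side to the MXD side is the classical readout of this network. MLX ties the network to metabolism, since it also pairs with MondoA (MLXIP) and ChREBP (MLXIPL), which respond to glucose.

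The libraries held 15457071 to 19157348 counts in genes on the strand of the library. Between 92.3% and 93.1% of gene counts lay on that strand. Unmapped reads made up 8.13% to 8.48% of reads in the controls, against 16.8% and 15.9% in co-cultured replicates 1 and 2, and the part of this difference in the results below was not tested. Control replicates 1 and 2 stood apart at low counts, since their reads in MYC and MYCN lay about equally on both strands, and values that rest on them are given with and without them. The neuroendocrine character of the line was present, with the neuroendocrine factor INSM1 at 8606 to 11970 counts, whereas the count of CHGA, at most 1, is not read as a level for the reason given below for FBL and VARS. Markers of endothelial cells, which the membrane should hold back, summed to 18.4 to 29.6 CPM, that is, counts relative to library sizes scaled by TMM (the trimmed mean of M-values), in the controls and 24.3 to 24.9 CPM after co-culture. Of these 24 markers, 10 never exceeded 3 counts and 3 of those had none. PECAM1 had 3 to 14 counts in the controls and 11 to 18 after co-culture. Of 10 markers tested, 2 were called higher, ESAM with a log2 fold change of 2.14 and ICAM2 with 0.45. ESAM had 3, 4 and 6 counts in the controls and 21 and 14 after co-culture. It passed the count filter through the co-cultured libraries alone, so its call comes from a gene kept for its high counts there. Markers of pericytes and fibroblasts summed to 10.0 to 19.0 CPM in the controls and 23.4 to 26.9 CPM after co-culture, where THY1 alone gave 24.2 and 19.2 CPM. Of 9 tested in this list, THY1 was called higher and POSTN lower, and the median log2 fold change was -2.20, opposite in sign to the summed level. POSTN had 11, 15 and 3 counts in control replicates 1, 2 and 3 and none after co-culture, and passed the filter through control replicates 1 and 2 alone. PDGFRB, a defining pericyte gene, had 34, 30 and 0 counts in control replicates 1, 2 and 3 and 1 and 2 counts after co-culture, so that control replicates 1 and 2 stood apart here as well. Without these 2 libraries, 4 of this list could be tested and their median log2 fold change was 1.28. The median of 9 endothelial markers was then 0.40, and that over all genes tested -0.02. The remaining control was then taken to vary like the co-cultured libraries. The 18 neuroendocrine markers summed to 2879 to 3431 CPM in the controls and 3985 to 4005 CPM after co-culture, with 7 of 17 tested called higher and 2 lower. Over all genes tested, 18.4% were called higher and 15.0% lower. The part of any of these markers in the network's values was not tested.

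The promoters of the members were searched for the E-box, which the network itself reads. RefSeq promoter windows (GRCh38.p14), each running from 250 bases before a transcript start to 50 after it, were found for 9 members and gave 12 windows, since MXI1 has 3 and MAX has 2. MYC has no window in the table. The E-box CACGTG was searched on both strands, as were ACGTG and GCGTG, the core of the element read by hypoxia-inducible factor 1 (HIF-1), for which MXI1 is a known target gene. CACGTG contains ACGTG on both strands, so a CACGTG match is also an ACGTG match. CACGTG was in 3 of the 12 windows (MXD4, MNT and MLX), against 7.26% of all 35116 windows of 300 bases. ACGTG was in 5 of the 12, against 21.4% of all, and GCGTG was in 5, against 36.5%. A match is a description of the letters in the window and not a site of binding.

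The stretches before the start that lie outside annotated exons are shown for the called members and for MLX, which has an E-box and was not called. MNT also has an E-box, which began 193 bases before its start, and was not called. The MNT stretch is not shown. Matches are in capitals. The stretches were read 5′ to 3′ on the strand of each gene. MXI1 start 2 is at chr10:110209981-110210230 and MXI1 start 3 at chr10:110225746-110225992, both on the plus strand and within the MXI1 locus, since longer transcripts begin upstream. MXI1 start 1, whose window held no match, is not shown. MXD1 is at chr2:69914859-69915040 on the plus strand, and its window held no match either. MXD3 is at chr5:177312758-177313002, MXD4 at chr4:2262295-2262359 and MYCL at chr1:39902014-39902140, all on the minus strand, and MLX is at chr17:42566850-42567067 on the plus strand.
MXI1 start 2: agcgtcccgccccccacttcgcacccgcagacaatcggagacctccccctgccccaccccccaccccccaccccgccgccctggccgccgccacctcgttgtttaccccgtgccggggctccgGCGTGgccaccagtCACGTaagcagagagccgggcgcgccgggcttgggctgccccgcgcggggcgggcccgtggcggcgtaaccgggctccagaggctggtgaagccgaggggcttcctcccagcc
MXI1 start 3: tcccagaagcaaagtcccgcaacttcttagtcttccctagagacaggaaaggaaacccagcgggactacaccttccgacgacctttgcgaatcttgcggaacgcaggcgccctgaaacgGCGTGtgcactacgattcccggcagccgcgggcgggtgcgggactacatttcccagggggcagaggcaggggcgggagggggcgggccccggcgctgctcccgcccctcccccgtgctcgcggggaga
MXD1: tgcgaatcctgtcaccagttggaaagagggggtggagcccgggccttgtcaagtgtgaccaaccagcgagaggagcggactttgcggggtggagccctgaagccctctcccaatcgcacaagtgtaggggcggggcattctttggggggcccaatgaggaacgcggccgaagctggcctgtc
MXD3: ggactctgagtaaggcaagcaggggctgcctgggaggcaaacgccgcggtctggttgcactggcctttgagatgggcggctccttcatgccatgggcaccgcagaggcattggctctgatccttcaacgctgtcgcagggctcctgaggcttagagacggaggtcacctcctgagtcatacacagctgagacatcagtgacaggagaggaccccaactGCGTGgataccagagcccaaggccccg
MXD4: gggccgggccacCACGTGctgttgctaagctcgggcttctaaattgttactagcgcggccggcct
MYCL: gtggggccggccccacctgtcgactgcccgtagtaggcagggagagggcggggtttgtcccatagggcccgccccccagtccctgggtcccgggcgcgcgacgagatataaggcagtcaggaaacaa
MLX: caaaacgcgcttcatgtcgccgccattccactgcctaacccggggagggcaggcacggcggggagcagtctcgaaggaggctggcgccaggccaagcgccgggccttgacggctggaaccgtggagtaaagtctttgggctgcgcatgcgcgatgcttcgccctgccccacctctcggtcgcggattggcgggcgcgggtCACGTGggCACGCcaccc
At MXI1 start 2, GCGTG began 127 bases before the start. ACGTG began 113 bases before it, on the other strand and therefore printed as its reverse complement. GCGTG began 131 bases before MXI1 start 3 and 32 bases before the start of MXD3. The E-box began 238 bases before the start of MXD4 and 50 bases before that of MLX. MLX also had GCGTG on the other strand, 42 bases before its start. The printed stretch of MYCL held none of the 3 motifs, since the GCGTG match of its window lay after the start. The windows of MXD3 and MXI1 start 3 each held a further GCGTG match after the start. MAX also had an ACGTG match, in a window that is not shown.

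Co-culture moved 5 of the 8 members that had enough counts to be tested, in both directions and on both sides of the network. MYCL fell by 1.25 on the log2 scale, and so did the repressors MXD3 (by 1.33) and MXD4 (by 1.38), whereas the repressors MXI1 and MXD1 rose, with log2 fold changes of 1.60 and 0.53. MAX, MNT and MLX did not pass the test (adjusted p under 0.05 in edgeR's quasi-likelihood test, adjusted over all 20360 genes tested). By the same test, 33.4% of all genes were called, 18.4% as higher and 15.0% as lower, so a call alone is common in this comparison. A narrower criterion asked for more than a 2-fold change either way (log2 above 1 or below -1) and p under 0.05 before adjustment. It was met by 4 members (MXI1, MYCL, MXD3 and MXD4), against 10.5% of all genes. The median log2 fold change of the 8 members was -0.12, beside -0.03 over all genes tested. In 7 of the 8, all but MAX, the control and co-cultured libraries did not overlap, against 59.4% of all genes. MYC and MYCN had too few counts to be tested.

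**Figure D1:**
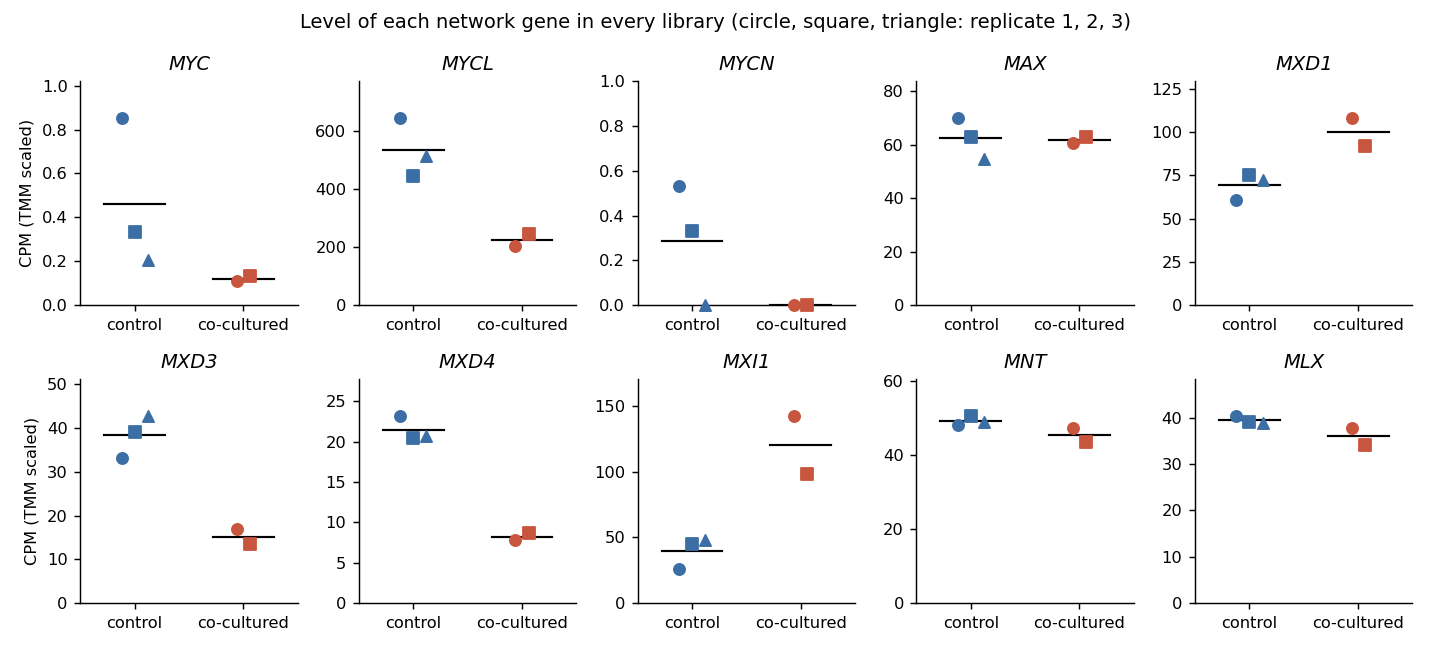
Level of each of the 10 network genes (y axis, CPM scaled by TMM, a different range in each panel) in the 3 control (blue) and 2 co-cultured (red) libraries, with the group mean as a line. MYCL, MXD3 and MXD4 lie lower in both co-cultured libraries, MXI1 and MXD1 lie higher, and MYC and MYCN stay below 1 CPM.

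MYCL was the MYC gene of these cells. The gene (ENSG00000116990.10) lies on the minus strand at chr1:39895426-39902256 in GRCh38. It had 12098, 8022 and 10050 counts in control replicates 1, 2 and 3, and 3731 and 3718 in co-cultured replicates 1 and 2. These were 643, 444 and 515 CPM in the controls against 204 and 246 CPM after co-culture. The lowest control stood well above both co-cultured libraries. The control mean was 534 ± 101 CPM (SD, n = 3) and the co-cultured mean 225 ± 29.5 CPM (SD, n = 2). The latter was 2.38-fold lower, with a standard error of the log2 fold change of 0.16, a 95% interval from -1.60 to -0.90 and an adjusted p of 0.000477. Per kilobase of exon, MYCL ranked 177 of 13697 protein-coding genes in the controls and 706 in the co-cultured cells. Even after its fall it remained the most abundant member of the network per kilobase.

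MYC (ENSG00000136997.17, chr8:127735434-127741434, plus strand) was nearly absent. It had 16, 6 and 4 counts in the controls and 2 counts in each co-cultured library. On the opposite strand, 12, 6 and 1 reads were counted in the controls and none in the co-cultured libraries, so the higher counts of control replicates 1 and 2 came with reads on both strands. With the co-cultured libraries set to a floor of 3 counts per library, the mean of all controls was 2.55-fold above that floor, and control replicate 3 alone 1.13-fold. At counts this low, these folds are not a lower bound on a change of MYC. PVT1, the long noncoding RNA next to MYC, had 1 or 2 counts in every library, and CASC11, also beside MYC, had none.

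MYCN (ENSG00000134323.11, chr2:15940564-15947007, plus strand), the MYC gene of neuroblastoma, had 10, 6 and 0 counts in the controls and none in either co-cultured library. Its opposite strand held 10, 9 and 0 reads in the controls. The mean MYCN level of all controls was 1.59-fold above the floor, a value that rests on the reads of control replicates 1 and 2. With control replicate 3 alone, both groups were at 0 and no fold can be given. Its antisense transcript MYCNOS had 1, 2 and 0 counts in the controls and none after co-culture, and MYCNUT had none in any. A count near 0 also occurred for FBL and VARS, genes that every cell uses and which never exceeded 2 counts here. Whether counting lost reads of MYC or MYCN in the same way was not tested.

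The only RNA of the MYC neighbourhood with enough counts was PCAT1, a long noncoding RNA upstream of MYC. It had 17.2, 15.5 and 12.4 CPM in the controls against 20.9 and 25.0 CPM after co-culture, without overlap, and its log2 fold change was 0.61 (SE 0.15, adjusted p = 0.0147). Its opposite strand held more reads than its own, 632, 569 and 648 in the controls against 850 and 755 after co-culture. The remaining names of this list of 11 were not all in the annotation, which held 5 of them.

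MAX, the partner on which both sides depend, was not called. The gene (ENSG00000125952.18, chr14:65006174-65102695, minus strand) was at 69.9, 62.8 and 54.8 CPM in the controls and 60.7 and 63.0 CPM after co-culture, and the co-cultured values lay inside the range of the controls. The log2 fold change was -0.02 with a 95% interval from -0.25 to 0.22 (adjusted p = 0.920). Without control replicate 1 its sign turned, to 0.075, and with neither control replicate 1 nor 2 it was 0.17.

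MXI1 showed the largest change of the repressors that rose. MXI1 antagonises MYC by competing for MAX. The gene (ENSG00000119950.20, chr10:110207605-110287365, plus strand) had 487, 811 and 940 counts in the controls and 2602 and 1485 in the co-cultured libraries. These were 25.9, 44.8 and 48.1 CPM in the controls and 142 and 98.1 CPM after co-culture. Both groups were wide, yet the lower co-cultured library was above the highest control. MXI1 was 3.04-fold higher in co-cultured cells (log2 fold change 1.60, SE 0.23, 95% interval 1.08 to 2.13, adjusted p = 0.00107). It rose from 8.60 ± 2.61 to 26.1 ± 6.77 CPM per kilobase (SD, n = 3 and 2) and from rank 5127 to 1482 of 13697.

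MXD1 (ENSG00000059728.10, chr2:69897688-69942945, plus strand), the founding MXD repressor, which accompanies differentiation in many tissues, rose less. It was at 60.7, 75.3 and 72.6 CPM in the controls and 108 and 92.2 CPM after co-culture, with no overlap. The mean was 1.44-fold higher (log2 fold change 0.53, SE 0.11, 95% interval 0.28 to 0.77, adjusted p = 0.00606). Without co-cultured replicate 1 the log2 fold change was 0.42 and the adjusted p 0.0999, in a fit where 1 co-cultured library was left, the controls gave all the spread, and calls over all genes went from 6809 to 2734. MXD1 shares 237 exonic bases on the same strand with SNRNP27, a splicing factor gene, whose log2 fold change was 0.00.

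MXD3 and MXD4 went the other way. MXD3 (ENSG00000213347.10, chr5:177301461-177312757, minus strand), the MXD gene linked to the S phase of dividing cells, was at 33.2, 39.0 and 42.8 CPM in the controls and 16.9 and 13.4 CPM after co-culture. The lowest control was well above the higher co-cultured library. Its level was 2.52-fold lower (log2 fold change -1.33, SE 0.15, 95% interval -1.66 to -1.01, adjusted p = 0.000253).

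MXD4 (ENSG00000123933.16, chr4:2247432-2262294, minus strand), which like MXD1 is found in differentiating cells, had 436, 370 and 404 counts in the controls against 143 and 131 after co-culture, or 23.2, 20.5 and 20.7 CPM against 7.82 and 8.65 CPM. The groups were far apart relative to the spread within them. MXD4 was 2.61-fold lower (log2 fold change -1.38, SE 0.13, 95% interval -1.67 to -1.09, adjusted p = 0.000125), the smallest p of the network.

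MNT, the repressor that is present in cells at rest and in growth alike, did not pass the test. The gene (ENSG00000070444.14, chr17:2384060-2401118, minus strand) was at 48.2, 50.6 and 48.9 CPM in the controls and 47.3 and 43.6 CPM after co-culture, so that the co-cultured values lay just under the controls. Its log2 fold change was -0.11 with a 95% interval from -0.30 to 0.07 (adjusted p = 0.324).

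MLX (ENSG00000108788.11, chr17:42567068-42573239, plus strand) was at 40.4, 39.1 and 39.0 CPM in the controls and 37.8 and 34.1 CPM after co-culture. Here too the co-cultured values lay just under the controls, and the log2 fold change of -0.13 (95% interval -0.33 to 0.07, adjusted p = 0.281) did not pass. Of the other proteins of the network, the MLX partner MLXIPL, known as ChREBP, was higher, at 20.0 and 17.1 CPM in co-cultured against 10.4, 14.1 and 13.7 CPM in control libraries (log2 fold change 0.55, SE 0.15, adjusted p = 0.0242). MLXIP, known as MondoA, had a log2 fold change of -0.30 and MGA, a large MAX partner that represses germline genes, one of -0.19, and neither was called.

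**Figure D2:**
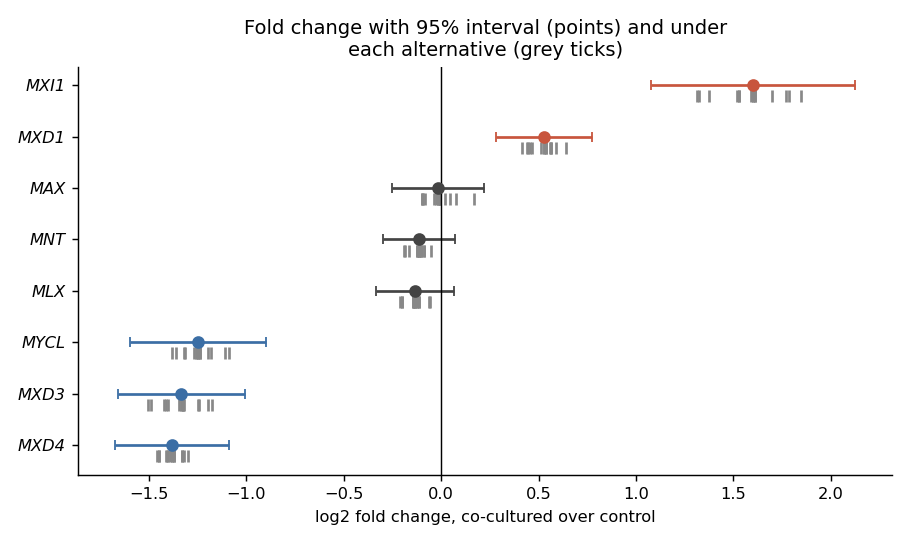
Log2 fold change, co-cultured over control (x axis), of the 8 network genes tested, as a point with its 95% interval (red called higher, blue called lower, dark grey not called), and as grey ticks under each alternative way of processing. All ticks of MYCL, MXD3, MXD4, MXD1 and MXI1 lie on the same side of 0 as the point, whereas those of MAX lie on both sides, from -0.10 to 0.17.

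Set in order of level per kilobase of exon, the network changed its ranking below MYCL. In the controls the order was MYCL at 105 ± 20.0 CPM per kilobase, MAX at 14.1 ± 1.70, MXD1 at 10.9 ± 1.22, MLX at 9.27 ± 0.181, MXI1 at 8.60 ± 2.61, MXD3 at 7.44 ± 0.937, MNT at 5.64 ± 0.142 and MXD4 at 3.04 ± 0.214 (SD, n = 3), with MYC at 0.154 ± 0.114 and MYCN at 0.111 ± 0.103. Among these neighbours, MLX and MXI1, MXI1 and MXD3, and MYC and MYCN had overlapping ranges of mean ± SD. In the co-cultured cells MXI1 came directly after MYCL, which was at 44.4 ± 5.82, and before MXD1 at 15.8 ± 1.76, MAX at 14.0 ± 0.364, MLX at 8.44 ± 0.620, MNT at 5.21 ± 0.303, MXD3 at 2.94 ± 0.477 and MXD4 at 1.17 ± 0.0839 CPM per kilobase (SD, n = 2). The ranges of MXD1 and MAX overlapped there. The length used is that of all annotated exons of a gene, so levels of genes with many transcripts may be understated.

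Summed by role, transcripts of the MYC side were lower and those of the MXD side higher in the co-cultured cells. The 3 MYC genes together gave 128, 87.8 and 102 CPM per kilobase in the controls and 40.3 and 48.6 in the co-cultured libraries, and MYCL made up at least 99.6% of this sum in every library. The 4 MXD genes with MNT gave 30.4, 37.9 and 38.7 CPM per kilobase in the controls and 57.7 and 44.6 after co-culture. The ratio of the MYC sum to the MXD and MNT sum was 4.19, 2.32 and 2.63 in the controls and 0.699 and 1.09 after co-culture. With means taken on the log2 scale, the ratio was 3.38-fold lower on co-culture. No library of one group reached the range of the other in these quantities. Relative to MAX, the MYC sum was 8.09, 6.20 and 8.22 in the controls and 2.94 and 3.42 after co-culture. These sums restate the values of the members and carry no test of their own, and transcript levels say nothing of the proteins.

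The MXD side also changed in make-up. MXD1 and MXI1 together rose from 15.2, 21.6 and 21.9 CPM per kilobase to 47.9 and 35.8, while MXD3 and MXD4 together went from 9.72, 10.5 and 11.2 to 4.38 and 3.83. MXD1 and MXI1 were 61.0%, 67.3% and 66.1% of the MXD family in the controls and 91.6% and 90.3% in the co-cultured libraries. The sum of the whole MXD family relative to MAX was closer between groups, at 1.58, 2.26 and 2.67 in the controls and 3.82 and 2.79 after co-culture.

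**Figure D3:**
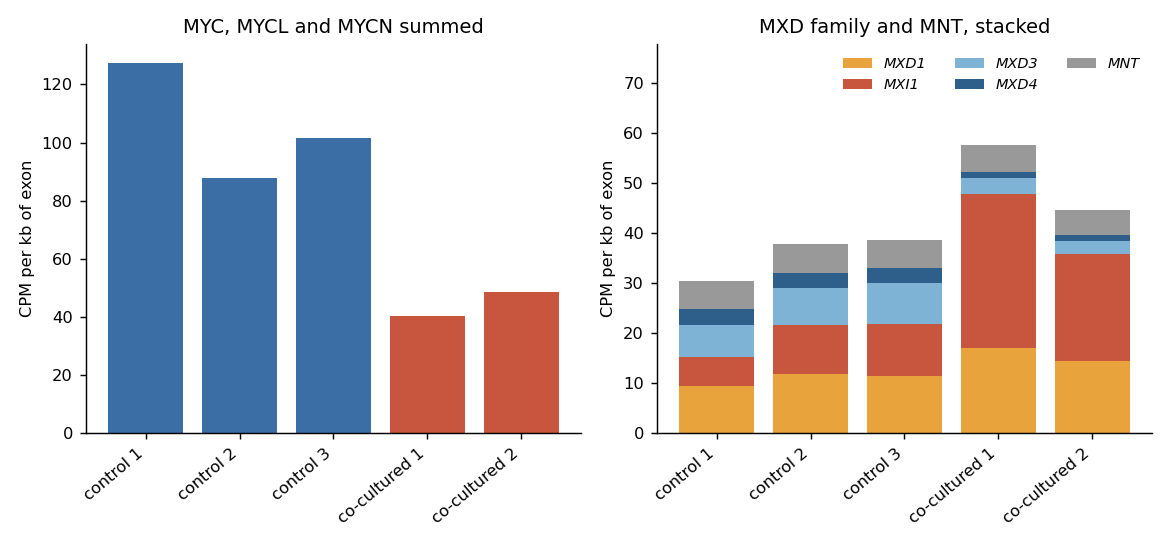
Left, summed level of MYC, MYCL and MYCN in each of the 5 libraries (y axis, CPM per kilobase of exon; blue control, red co-cultured). Right, stacked levels of MXD1, MXI1, MXD3, MXD4 and MNT on the same kind of axis. The MYC sum is 87.8 or more in the controls and at most 48.6 in the co-cultured libraries, and the MXI1 segment grows while those of MXD3 and MXD4 shrink.

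Reads on the opposite strand made up a large share at 2 of the tested members. At MYCL only 0.347% of the reads of both strands lay on the opposite strand, and at MXD4 0.0673%, whereas the share was 57.6% at MXD3 and 37.3% at MLX. Both genes share exonic bases with a gene that runs against them. MXD3 shares 1158 of its 5154 exonic bases with PRELID1, which encodes a mitochondrial lipid carrier. Reads opposite to MXD3 numbered 730, 476 and 541 in the controls and 973 and 910 after co-culture, against 918, 613 and 697, and 1268 and 1162 counts of PRELID1 itself. PRELID1 rose (log2 fold change 0.89, adjusted p = 0.00183), opposite in direction to MXD3 on its own strand. MXD3 also shares 926 exonic bases on its own strand with RAB24, a vesicle transport gene, which was called higher (log2 fold change 0.87, adjusted p = 0.0391) at 21 to 42 counts a library.

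MLX shares 770 of its 4259 exonic bases with PSMC3IP, a recombination gene on the other strand. Reads opposite to MLX numbered 354, 358 and 357 in the controls and 526 and 447 after co-culture, and PSMC3IP had 621, 590 and 617, and 854 and 739 counts (log2 fold change 0.56, adjusted p = 0.00120). The libraries were made with a directional kit and the counts of the members are those of their own strand. With counts of both strands, MXD3 was still called lower (log2 fold change -1.20) and MLX still not called (-0.06).

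**Figure D4:**
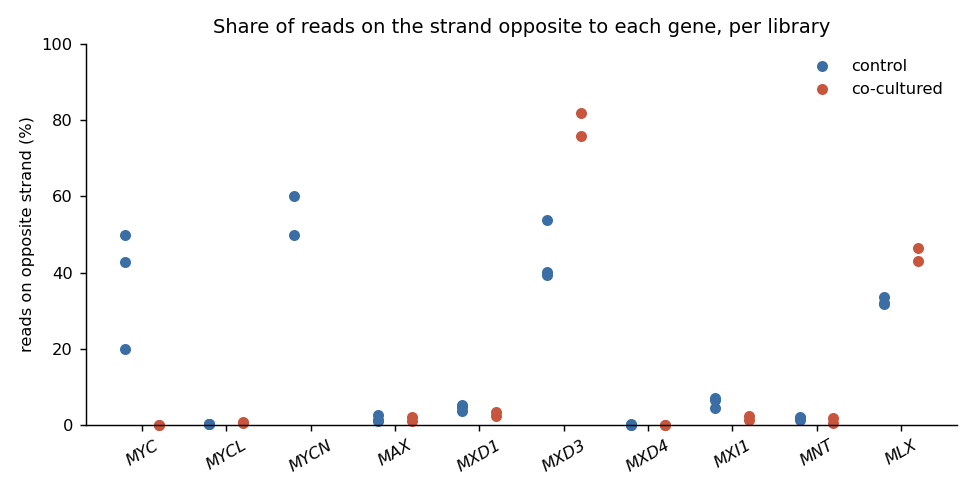
Share of the reads of both strands that lay on the strand opposite to each network gene (y axis, percent), per library (blue control, red co-cultured). MXD3 and MLX stand out among the tested genes, at 57.6% and 37.3% over all libraries, and MYC and MYCN do so on few reads and in control libraries only.

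The genes beside the members moved in both directions. Within 100 kb of MYCL, 2 protein-coding genes were tested, of which TRIT1, a tRNA modifying enzyme, fell (log2 fold change -0.40, adjusted p = 0.00768) and MFSD2A, a lipid transporter also known from brain endothelium, rose (0.83, adjusted p = 0.00217). Beside MXI1, ADD3 rose by less than MXI1 (0.36, adjusted p = 0.0260) and SMNDC1 was at 0.04. Of the 3 genes beside MXD4 (POLN, HAUS3 and ZFYVE28), 0 were called. Of 7 beside or overlapping MXD3, 5 were called higher and 0 lower, the opposite direction to MXD3. These 5 include PRELID1 and RAB24, which share exonic bases with MXD3. Over all genes tested, 18.4% were called higher and 15.0% lower. Of 4 beside MXD1, GMCL1, a germ cell gene, alone was called (-0.32, adjusted p = 0.0123). These genes were looked up after the values of the members were seen.

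The genes whose pattern over the 5 libraries lay nearest to a member were taken among 13696 other protein-coding genes, as the Euclidean distance between centred log2 CPM. Nearest to MXI1 were ALDOC, a glycolytic aldolase, at a distance of 0.176, then TGFB1, the growth factor, at 0.197, and FUT11, a fucosyltransferase, at 0.221. ALDOC had 13.6, 23.3 and 29.2 CPM in the controls and 77.2 and 55.8 CPM after co-culture, so that like MXI1 it was lowest in control replicate 1 and highest in co-cultured replicate 1. Nearest to MXD4 were ADORA1, an adenosine receptor, at 0.0650, PFKFB2, a regulator of glycolysis, at 0.108 and ZSCAN5A, a zinc finger gene, at 0.130. These distances describe 5 points each and carry no test.

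The proteins that the network recruits were called at about the rate of all genes. Among 17 co-activators tested, 3 were higher and 3 lower (35.3% called, against 33.4% of all genes), and the median log2 fold change was 0.10. KAT2A, the acetyltransferase GCN5, fell (-0.54, adjusted p = 0.00460) and HCFC1, a cofactor that binds MYC, rose (0.42, adjusted p = 0.00999). Among 17 co-repressors of MXD and MNT, 5 were higher and 1 lower (median 0.11). SAP30, a SIN3 subunit, went from 23.7, 25.8 and 29.8 CPM to 54.9 and 47.2 CPM (log2 fold change 0.95, SE 0.12, adjusted p = 0.000463). ING1 (0.56, adjusted p = 0.00217) and ING2 (0.71, adjusted p = 0.00357), both SIN3 subunits that read histone methylation, rose as well.

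Genes that set the stability of MYC proteins were called in 9 of 24 cases (37.5%, against 33.4% of all genes), 6 higher and 3 lower, and the median log2 fold change was 0.12. AURKA, a kinase that shields MYCN from degradation, fell from 57.9, 55.0 and 57.4 CPM to 33.6 and 35.6 CPM (log2 fold change -0.71, SE 0.083, adjusted p = 0.000342). PLK1, a mitotic kinase with a similar role, fell by 1.07 on the log2 scale (adjusted p = 0.000357). Both are also mitotic genes. PPP2R5A, a phosphatase subunit that promotes MYC degradation, rose (0.79, adjusted p = 0.00135).

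Target genes did not move in 1 direction. Ribosome biogenesis, the most widely shared program of MYC proteins, was called in 10 of 44 genes, 2 higher and 8 lower, which at 22.7% was below the 33.4% of all genes, and its median log2 fold change was -0.04. Those that fell included NHP2, a snoRNP protein (-0.66, adjusted p = 0.00181), MYBBP1A, a nucleolar protein (-0.57, adjusted p = 0.00258), and HEATR1, a factor of ribosomal RNA synthesis (-0.49, adjusted p = 0.00223). HEATR1 had 1468 to 2036 reads on its opposite strand, beside 1705 to 2995 on its own. The nucleolar targets NCL and NPM1, picked after their values were seen, were at 0.31 and -0.14 and were not called.

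Of 30 genes of nucleotide and polyamine synthesis, 9 were higher and 7 lower (53.3% called, against 33.4% of all genes), with a median of 0.17. SHMT2 (1.26, adjusted p = 2.2e-05) and MTHFD2 (0.78, adjusted p = 0.000315), enzymes of mitochondrial one-carbon metabolism, rose, whereas AMD1, an enzyme of polyamine synthesis, fell (-0.58, adjusted p = 0.000897). ODC1, the classical polyamine target of MYC and likewise picked after its value was seen, was at -0.02 and not called. Among 32 genes of translation and growth, 13 were higher and 4 lower (53.1% called, against 33.4% of all genes), with a median of 0.15. LDHA, lactate dehydrogenase, went from 467, 524 and 585 CPM to 1712 and 1424 CPM (log2 fold change 1.58, SE 0.12, adjusted p = 4.7e-05). TARS, a tRNA synthetase (0.94, adjusted p = 9.3e-05), and SLC3A2, a chain of amino acid transporters (1.31, adjusted p = 0.000526), also rose.

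Cell cycle targets leaned lower. Of 22 tested, 10 fell and 4 rose, with a median log2 fold change of -0.13, beside 15.0% lower and 18.4% higher over all genes. MCM5 (-0.61, adjusted p = 0.000495) and MCM7 (-0.54, adjusted p = 0.000851), subunits of the replicative helicase, fell, as did CDC20, an activator of anaphase (-0.67, adjusted p = 0.000554). CDK4, a kinase of the G1 phase picked in the same way, was at 0.37 and not called.

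Genes that MYC represses leaned higher. Of 21 tested, 10 rose and 2 fell, beside 18.4% higher and 15.0% lower over all genes, and the median log2 fold change was 0.27. CDKN1A, which encodes the inhibitor p21, went from 34.1, 24.8 and 23.7 CPM to 94.9 and 85.7 CPM, 3.28-fold higher (log2 fold change 1.71, SE 0.14, adjusted p = 7.7e-05). GADD45B, a stress gene, rose from 8.83, 8.79 and 8.50 CPM to 22.9 and 18.1 CPM (1.24, adjusted p = 0.000270). CAV1, a membrane scaffold that endothelial cells also express at a high level, rose from 8 or 9 counts to 56 and 52 counts (2.85, adjusted p = 0.000193). It passed the count filter through the co-cultured libraries alone, so its call comes from a gene kept for its high counts there. The part of endothelial RNA in CAV1 was not tested.

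MondoA and MLX targets were divided. Of 8 tested, 4 rose and 1 fell (62.5% called, against 33.4% of all genes), with a median of 0.73. KLF10, a transcription factor, rose 2.25-fold (1.17, adjusted p = 4.1e-05), PFKFB3, a driver of glycolysis, rose 3.28-fold (1.71, adjusted p = 0.000908) and ARRDC4, an arrestin that limits glucose uptake, rose by less (0.75, adjusted p = 0.00210). TKFC, a fructose enzyme, fell (-0.72, adjusted p = 0.00133). TXNIP, the most direct readout of MondoA, was at 463, 519 and 584 CPM in the controls and 488 and 419 CPM after co-culture, which overlapped, and its log2 fold change of -0.20 was not called.

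**Figure D5:**
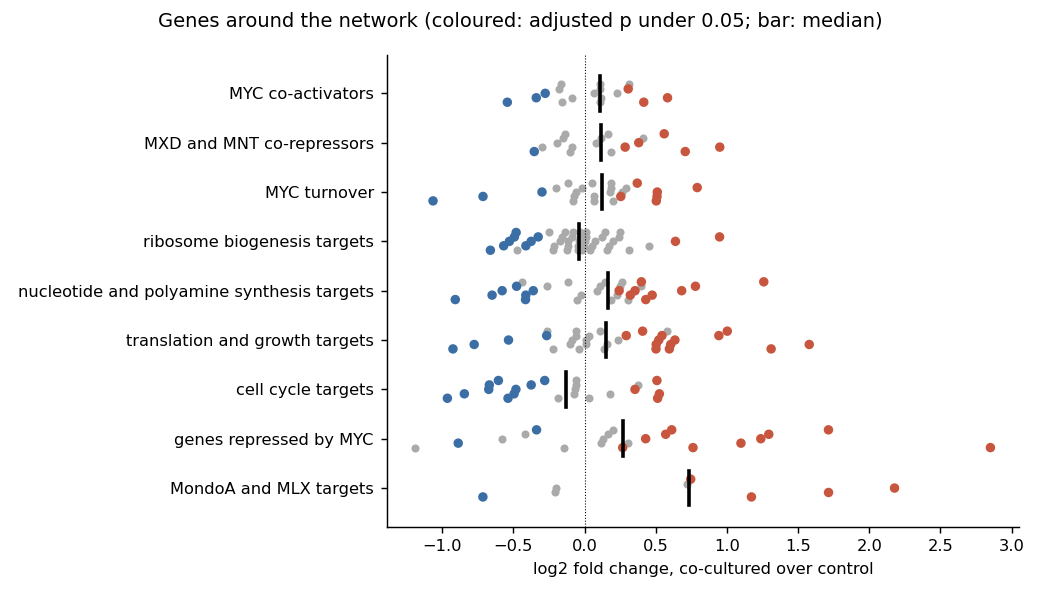
Log2 fold change, co-cultured over control (x axis), of each tested gene in 9 lists of cofactors, regulators and targets of the network (rows). Red and blue points were called higher and lower, grey points were not called, and the black bar is the median of a list. Genes repressed by MYC and MondoA targets have medians of 0.27 and 0.73, cell cycle targets one of -0.13, and ribosome biogenesis targets one of -0.04.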

How the data were processed

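Libraries were prepared from rRNA-depleted RNA with a directional kit. The submitters' processing notes name CASAVA 1.8, STAR 2.6.1b, DESeq2 and the GRCh38 build. The authors deposited raw read counts per gene for each of the 5 libraries, on both strands together and on each strand, and the counts of the library's strand were used. The reads that STAR left out of genes (66.4% to 69.3%) stayed out of library sizes and tests. A deposited table of the authors' own comparison holds group means, fold changes and p-values, none of which were used, and only its pairs of gene ID and name were read. Gene positions, exons and further names came from GENCODE release 29, which held 58780 of the 64837 entries counted. In the lists, 1 pericyte marker name shared by 2 genes was left out, and list names not in the annotation were not counted.

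Genes were filtered with filterByExpr, scaled with TMM and tested with the quasi-likelihood test of edgeR 4.0.16 (R 4.3.3) over all 5 libraries, co-cultured against control, with Benjamini-Hochberg adjustment over 20360 genes. The common dispersion was 0.0103, a coefficient of variation between libraries of 10.2%. CPM are scaled by TMM, and the floor is 3 counts per library. On simulated counts for the same comparison and genes, 177 of 200 changed genes were recovered, with 16 others called. That simulation changed only these 200 of 20360 genes, equally up and down, whereas 33.4% were called in the data. It therefore does not measure the error rate of the comparison itself. Alternatives were DESeq2 1.42.0, the edgeR exact test, other scalings and filters, counts of both strands, protein-coding genes alone, a replicate block, and each library left out in turn.

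The members and lists were chosen with earlier results of these data known. Text names all members, all other network genes and MYC neighbours, the 3 genes of smallest p among those called in each list (TXNIP and ARRDC4 in addition), and the 3 genes nearest in pattern to the risen and the fallen member of smallest p. Genes named outside this rule are stated as such where they appear, with the marker, overlapping and flanking genes. Some genes that this rule would name are not reported here. Protein sequences were not analysed here. Figures were drawn with matplotlib 3.10.9.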

Additional observations from a re-analysis of the deposited data

Results flagged for a closer look

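Reads on the strand opposite to MXD3 were higher in the co-cultured libraries, with a mean of 56.6 CPM (SD 4.90, n = 2). The controls had 30.9 ± 6.85 CPM (SD, n = 3). These reads lie outside the counts of MXD3 itself. The same held for MLX, with a mean of 29.1 CPM (SD 0.550, n = 2) against 19.0 ± 0.768 CPM (SD, n = 3). In both cases a gene on that strand shares exonic bases with the member and had more counts in the co-cultured libraries, PRELID1 for MXD3 and PSMC3IP for MLX. The reads opposite to MXD3 were 76.7% to 79.5% of the number counted for PRELID1 in every library.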

How the results depend on the processing

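The 5 called members kept their call and direction under all 14 other ways of processing and without control replicates 1 and 2 together (a choice made after the data were seen), except that MXD1 was not called without co-cultured replicate 1. Log2 fold changes over these settings ran from -1.38 to -1.09 for MYCL, from 1.31 to 1.85 for MXI1, from 0.42 to 0.64 for MXD1, from -1.51 to -1.18 for MXD3 and from -1.46 to -1.30 for MXD4, and leaving out 1 library left 4 or 5 members called. MAX turned positive with counts of both strands (0.047), without control replicate 1 (0.075), without co-cultured replicate 1 (0.02) and without control replicates 1 and 2 (0.17). It ran from -0.10 to 0.075 with 1 library left out, and the cause was not tested. When genes with at least 1 count in any library were all tested, the log2 fold change of MYC was -1.89 (adjusted p = 0.0785) and that of MYCN -5.39 (adjusted p = 0.0120), which rests on the reads of control replicates 1 and 2.

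Counts of called genes moved most with the library left out. Higher calls over all genes ran from 1749 (without co-cultured replicate 1) to 5295 (without control replicate 1) and lower calls from 985 to 4602, with the same libraries at the ends. With 1 library left out, called genes ran from 2 to 11 for co-repressors, 1 to 10 for co-activators, 5 to 17 for MYC turnover, 7 to 16 for the cell cycle, 7 to 15 for genes repressed by MYC, 5 to 25 for nucleotide and polyamine synthesis, 1 to 21 for ribosome biogenesis and 8 to 24 for translation and growth. Leaving out a library also leaves fewer samples. Protein-coding genes alone gave 10 co-repressors called, in a fit where 5804 of all 13699 genes were called.

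List medians of the log2 fold change moved as follows. Upper-quartile scaling gave 0.035 for co-repressors, 0.047 for MYC turnover and -0.21 for the cell cycle. Protein-coding genes alone gave 0.045, 0.056 and -0.20 for the same lists. Counts of both strands gave 0.19 for co-repressors and -0.053 for the cell cycle. Over all genes, log2 fold changes shifted by -0.078 with upper-quartile scaling and by -0.069 with protein-coding genes alone. With counts of both strands they shifted by 0.052. Upper-quartile scaling also moved lists not named here, such as co-activators from 0.10 to 0.026, so its moves are not particular to the lists named. The filter of at least 1 count gave 0.43 for genes repressed by MYC. Without control replicates 1 and 2 the median was 0.20 for MYC turnover and 0.66 for genes repressed by MYC. With 1 library left out, medians ran from 0.084 to 0.24 for MYC turnover, 0.41 to 0.97 for MondoA and MLX targets, -0.21 to -0.10 for the cell cycle and 0.28 to 0.44 for genes repressed by MYC.

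The labels do not say that libraries with the same replicate number were paired. Deviations of same-numbered libraries from their group means correlated at -0.17 and -0.094. With 2 co-cultured libraries, their deviations mirror each other, so these correlations cannot settle whether libraries were paired. With a replicate block, 4824 genes were called (2771 higher, 2053 lower) in place of 6809, co-activators called fell to 3 and the cell cycle median was -0.21, while the calls of the members were as before. Fits with 1 co-cultured library take its spread from the controls.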
